A study of Mus musculus with 28 samples.

Results

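The skeletal myosin heavy chain cluster was examined as a window of 380 kb on mouse chromosome 11, from 66.85 to 67.23 Mb in mm9, which was taken to hold Myh3, Myh2, Myh1, Myh4, Myh8 and Myh13. Every peak that overlapped the window by at least 1 bp was counted, which gave 527 of the 2048700 peaks in 28 lists of open chromatin, and between 8 and 33 peaks per list. Merged over all lists, these peaks formed 57 of the 253225 regions of the genome. Which site lies in which gene was not determined, because no mm9 annotation was used here, so sites are given by their mm9 position and by their distance from the start of the window.

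Myosin heavy chain is the motor protein of the thick filament of muscle, and in mouse 6 skeletal genes for it stand side by side. Myh3 and Myh8 encode the embryonic and perinatal forms, Myh2, Myh1 and Myh4 the adult fast forms IIa, IIx and IIb, and Myh13 the extraocular form. Fibroblasts do not normally use these genes, satellite cells are the stem cells that give rise to the muscle cells that do, and MyoD is the transcription factor that starts the muscle programme in both. In adult mouse muscle an enhancer upstream of Myh2 is known to contact the adult fast genes. In the GRCm38.p6 gene table all genes of the cluster run in the order Myh3, Myh2, Myh1, Myh4, Myh8, Myh13, with Sco1 next to Myh3, the non-coding gene 2310065F04Rik between Myh3 and Myh2, and the non-coding gene Myhas between Myh1 and Myh4.

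The promoter windows of the members, from 250 bases before to 50 bases after the annotated start (RefSeq, GRCm38.p6, plus strand), are shown so that the members can be compared at their starts; no peak could be placed in them, since the builds differ. All 6 symbols matched the table. In that build, and not comparable with the mm9 positions of the sites, they lie at chr11:67078050-67078349 (Myh3), chr11:67170777-67171076 (Myh2), chr11:67199852-67200151 (Myh1), chr11:67237562-67237861 (Myh4), chr11:67276874-67277173 (Myh8) and chr11:67326853-67327152 (Myh13). Capitals mark TATAAA on either strand and the longest run of bases common to Myh2, Myh1, Myh4 and Myh8.
Myh3: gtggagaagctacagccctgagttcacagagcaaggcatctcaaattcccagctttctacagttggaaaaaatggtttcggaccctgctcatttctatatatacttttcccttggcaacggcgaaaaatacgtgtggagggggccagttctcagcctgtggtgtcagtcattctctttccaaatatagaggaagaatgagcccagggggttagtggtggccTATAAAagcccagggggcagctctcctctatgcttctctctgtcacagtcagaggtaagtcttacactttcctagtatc
Myh2: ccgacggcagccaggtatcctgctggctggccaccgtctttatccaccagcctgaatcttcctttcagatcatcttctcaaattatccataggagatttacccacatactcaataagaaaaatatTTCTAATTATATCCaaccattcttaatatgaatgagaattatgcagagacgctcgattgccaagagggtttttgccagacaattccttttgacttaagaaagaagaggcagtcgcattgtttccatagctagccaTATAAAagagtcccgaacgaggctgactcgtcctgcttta
Myh1: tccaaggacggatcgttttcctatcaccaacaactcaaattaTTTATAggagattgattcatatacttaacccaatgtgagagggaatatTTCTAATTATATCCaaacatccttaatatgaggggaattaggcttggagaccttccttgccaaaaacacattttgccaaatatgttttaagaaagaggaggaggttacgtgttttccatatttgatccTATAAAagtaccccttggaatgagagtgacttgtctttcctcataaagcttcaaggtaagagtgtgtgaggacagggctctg
Myh4: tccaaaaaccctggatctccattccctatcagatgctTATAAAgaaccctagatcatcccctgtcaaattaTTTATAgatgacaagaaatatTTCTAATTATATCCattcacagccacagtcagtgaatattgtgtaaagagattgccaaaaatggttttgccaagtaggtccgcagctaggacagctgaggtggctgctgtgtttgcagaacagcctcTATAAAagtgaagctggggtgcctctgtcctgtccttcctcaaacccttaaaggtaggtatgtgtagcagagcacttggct
Myh8: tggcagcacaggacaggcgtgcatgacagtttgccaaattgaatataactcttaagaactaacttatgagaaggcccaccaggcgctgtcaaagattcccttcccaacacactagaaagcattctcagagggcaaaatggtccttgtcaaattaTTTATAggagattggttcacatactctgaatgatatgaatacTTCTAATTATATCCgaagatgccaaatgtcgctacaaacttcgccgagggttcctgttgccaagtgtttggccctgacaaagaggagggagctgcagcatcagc
Myh13: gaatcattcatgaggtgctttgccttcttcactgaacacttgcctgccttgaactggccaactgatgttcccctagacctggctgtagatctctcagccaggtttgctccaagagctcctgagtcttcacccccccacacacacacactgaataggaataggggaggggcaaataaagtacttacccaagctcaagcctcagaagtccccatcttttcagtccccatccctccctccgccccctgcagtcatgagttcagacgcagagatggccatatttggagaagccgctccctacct
That common run is TTCTAATTATATCC, 14 bases long, and all motifs were searched on both strands. It was found in 4 of 32851 mouse promoter windows (0.0122%), namely those of the 4 genes it was derived from. TATAAA stood in the windows of Myh3, Myh2, Myh1, Myh4 and Myh8, 1 to 3 times each, and in 13.6% of all promoter windows. The general E-box CANNTG, the kind of motif that MyoD binds, matched 3 times in Myh4, 2 times each in Myh8 and Myh13 and 1 time in Myh3, with no match in the windows of Myh2 and Myh1, against a match in 72.3% of all windows. The form CAGCTG, which overlaps CANNTG, was present 1 time in Myh4 and in 16.3% of all windows.

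All 14 groups had 2 ATAC-seq libraries. Whether a pair came from different cultures or mice is not in the labels, and the p-values then reflect library spread alone, which may be technical. Per the labels, the fibroblasts came from E13.5 embryos that carried the alleles Pax7-nGFP, Col1a1-tetO-MyoD and Rosa-rtTA, so that doxycycline turns on MyoD and a nuclear green protein marks Pax7 expression. In the MEF14 groups labelled Dox+FRG, sampled at days 2, 4, 6 and 8, doxycycline (2 µg/ml) was given with forskolin (5 µM), RepSox (5 µM) and the GSK3β inhibitor CHIR99021 (3 µM), with basic FGF in the medium. Further Dox+FRG groups labelled GFP were from days 8 and 10; the labels do not say how they were selected, and Dox+FRG groups without that label are called unsorted here. Dox groups at days 4 and 8 had doxycycline and basic FGF without the small molecules. The FRG day 8 group was read as the small molecules with basic FGF and without doxycycline, and Day 0 as the starting fibroblasts. Activated and quiescent satellite cells (SCs) came from Pax7-nGFP mice of 10 to 12 weeks. The MEF10 groups were labelled MN+FRG and MyoD+FRG at day 6, and neither MN nor the way MyoD was supplied to MEF10 cells is given by the labels. Peaks in a bulk list cannot tell a site that is open in few cells from one that is weakly open in many.

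The lists held 37301 to 134997 peaks and in all but 1 list most peaks shared 1 width, from 61 bp (FRG day 8 replicate 1) to 205 bp. In MEF10 MyoD+FRG day 6 replicate 2 the commonest width was 500 bp, and 62245 of its 91401 peaks were wider. Read depth is unknown, and the 4 longest lists were those of FRG day 8 (134997 and 133267 peaks) and Dox day 8 (108663 and 130916). The labelled cell types were not checked against marker genes, since peaks could not be assigned to genes. MEF10 MyoD+FRG day 6 replicate 2 stood apart. Its window peaks reached 6558 bp and covered 34105 bp, against 2338 to 8487 bp in the other lists. Those wide peaks join neighbouring regions, so counts of regions are given as merged over all lists, while single places are described as 58 sites merged without that list. Of these sites 44 were called in both libraries of at least 1 group and 9 in 1 library only. A site can still join places that libraries called apart, as at 31.3, 40.5, 44.4, 76.1, 83.8, 128.6, 132.9, 163.1, 229.8, 240.6 and 321.8 kb. Libraries counted at the same site thus need not have overlapping peaks.

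**Figure D1:**
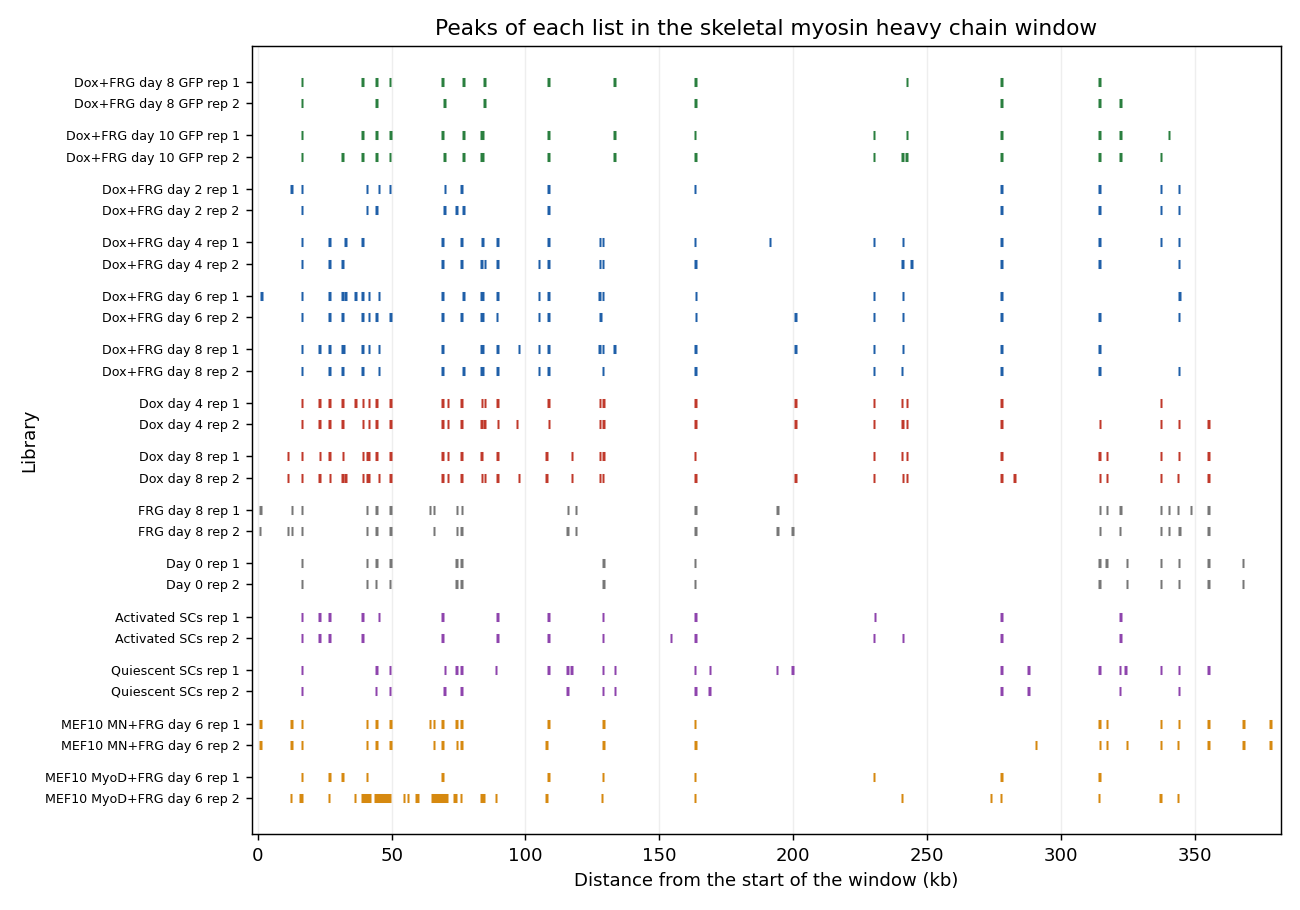
Each row is a library and each mark a peak, placed by its distance in kb from the start of the window (peaks under 0.9 kb are drawn 0.9 kb wide so that they can be seen). Peaks near 68.9 kb and 277.4 kb are present in all Dox+FRG and Dox libraries and absent from the FRG day 8 and Day 0 libraries.

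Lists from MEF14 cells with induced MyoD held more of their peaks in the cluster than lists from cells without induction. The share was 2.81 ± 0.481 window peaks per 10000 peaks of the list in the 16 MyoD-induced libraries (range 1.84 to 3.56) and 1.85 ± 0.287 in the 4 uninduced libraries of FRG day 8 and Day 0 (range 1.58 to 2.12; SD). The difference was 0.956 (two-sided exact permutation test, 4845 splits; p = 0.00144, and 0.00578 adjusted over the 4 tests of this kind). The 2 libraries of a group were permuted as separate units in these tests. The ranges overlapped, since Dox+FRG day 8 GFP replicate 2 (1.84) lay below both Day 0 libraries (2.12 and 2.07).
Plain numbers of peaks did not separate the sets, with 19.6 ± 6.73 in MyoD-induced and 18.0 ± 4.08 in uninduced libraries (adjusted p = 0.800, exact permutation test), and against Day 0 alone the difference in share was 0.709 (adjusted p = 0.114, exact permutation test). FRG day 8, with the longest lists, had 22 and 21 window peaks, or 1.63 and 1.58 per 10000. Averaged over the 380 kb on both sides of the window, the sets stood the other way round. The mean of both flanks was 1.83 ± 0.256 peaks per 10000 in MyoD-induced and 2.19 ± 0.114 in uninduced libraries (SD, n = 16 and 4), a difference that was not tested. It came from the flank after the window end, with 47 and 43 peaks in FRG day 8, 22 and 21 in Day 0 and 6 to 32 in MyoD-induced lists. As a mean share, the flank before the window start kept the window's order, mainly through the long FRG day 8 lists. In that flank both Day 0 shares lay within the range of the MyoD-induced ones, and both FRG day 8 shares lay below it. Peaks there numbered 11 and 12 in FRG day 8, 11 and 9 in Day 0 and 6 to 18 in MyoD-induced lists.

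**Figure D2:**
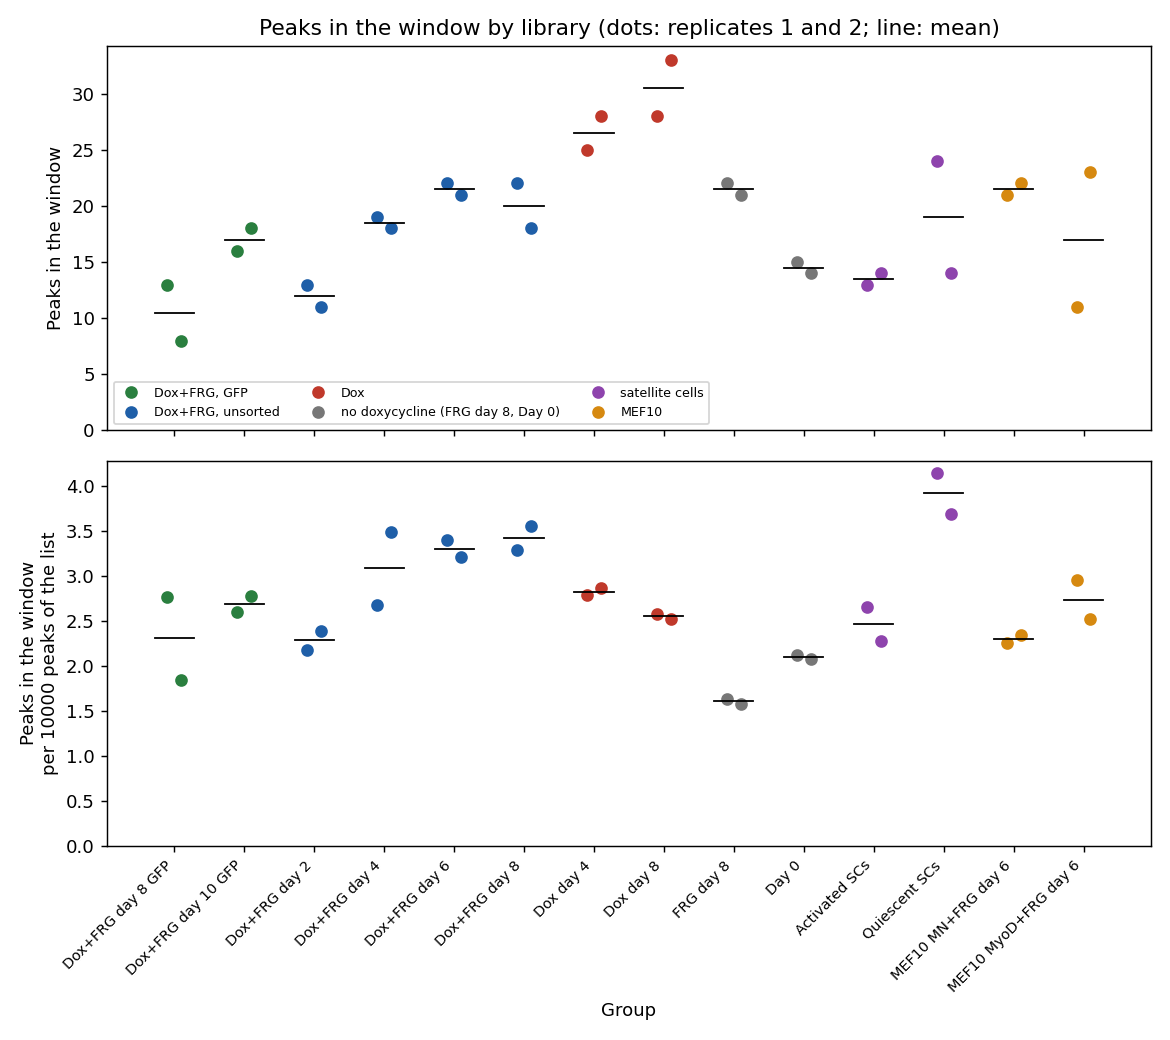
Dots give replicates 1 and 2 of each group and lines their means, as the number of peaks in the window (upper panel) and as peaks per 10000 peaks of the list (lower panel). Dox day 8 had the highest mean number (28 and 33) and quiescent SCs the highest share (4.15 and 3.69).

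The window's share of peaks was higher at later days of the Dox+FRG time course. Day 0 libraries had 15 and 14 window peaks and day 2 libraries 13 and 11. Day 4 had 19 and 18, day 6 had 22 and 21, and day 8 had 22 and 18. As a share of the list, Day 0 averaged 2.10 ± 0.0325 peaks per 10000 and day 2 averaged 2.28 ± 0.151 (SD, n = 2 each). Day 4 averaged 3.09 ± 0.574, day 6 averaged 3.30 ± 0.133 and day 8 averaged 3.42 ± 0.194. Both libraries of days 4, 6 and 8 thus lay above all libraries of Day 0 and day 2. Over these 10 libraries the share was related to day with Pearson's r = 0.89 (permutation p = 0.00112, two-sided) and Spearman's rho = 0.86 (permutation p = 0.00252), and the flanks had 2.28 ± 0.0776 at Day 0 and 1.54 ± 0.0628 at day 8. Adjusting over this 1 relation leaves these values as they are. Day 0 and day 8 are equally far from the median day. Without Day 0, r was 0.81 (permutation p = 0.0177) and rho 0.73 (permutation p = 0.0535), and without day 8 they were 0.89 (permutation p = 0.00527) and 0.88 (permutation p = 0.0103).

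**Figure D3:**
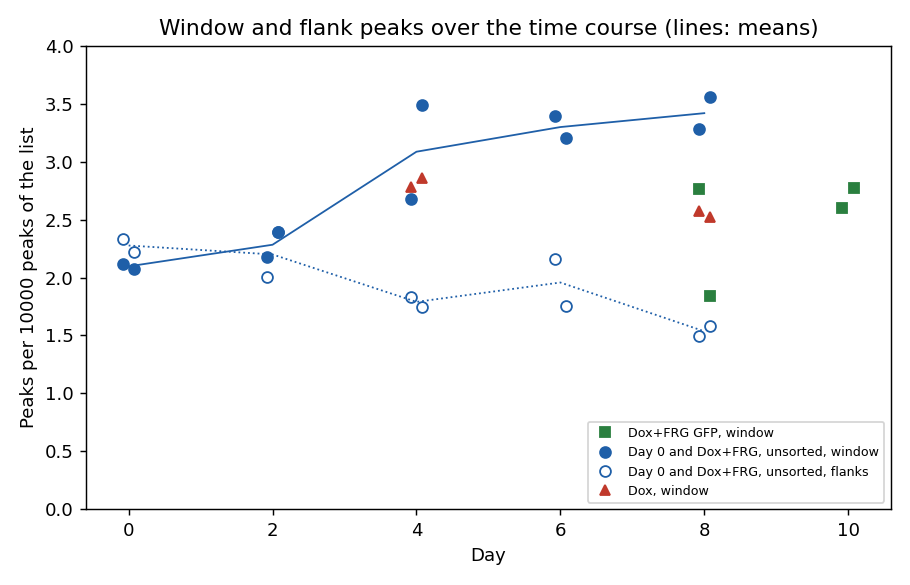
Filled symbols give window peaks per 10000 peaks of the list in each library by day, open circles the mean of both flanks in the Day 0 and unsorted Dox+FRG libraries, and lines the means. The window share climbs from 2.10 at Day 0 to 3.42 at day 8 in unsorted cells while the flank share goes to 1.54.

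Single sites were tested in a fit over the whole genome. Each region called in at least 4 of the 20 MEF14 libraries was tested by Fisher's exact test (two-sided, MyoD-induced against uninduced libraries, Benjamini-Hochberg adjustment over all regions). With all lists merged, 3 of 27 window regions were called more often with MyoD, 11.1% against percent called of 2.86 over the genome, and 1 of 27 less often, 3.70% against 5.21 over the genome. At an unadjusted p under 0.05, 7 of 27 (25.9%) were called more often, against 6.96 percent of regions genome-wide. Merged without the wide list, 4 of 30 sites were called more often and 1 less often, and the adjusted p-values of sites below come from that merge. The 2 libraries of a group entered as separate units. With any 1 of the 4 uninduced libraries (FRG day 8 or Day 0) left out, no window region passed in either direction (0 and 0).

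The 68.9 kb site (chr11:66918302-66919637) had a peak in 16 of 16 MyoD-induced and 0 of 4 uninduced libraries (adjusted p = 0.00787, Fisher's exact test). It was also present in all libraries of activated SCs, quiescent SCs, MEF10 MN+FRG and MEF10 MyoD+FRG, which the test did not use. Its peaks were wide in some libraries and of the list's common width in others, where they lay at the end of the wide ones farther from the window start. In Dox+FRG cells day 2 widths were 192 and 205 bp, and day 4 widths 1197 and 1197 bp. Day 6 had 1234 and 1165 bp, and day 8 had 1281 and 1117 bp. In GFP cells they measured 1257 and 182 bp at day 8 and 1210 and 172 bp at day 10. Activated SCs had widths of 1185 and 1202 bp, against 180 and 172 bp in quiescent SCs. So day 2 and quiescent cells called the site only at the common width, and days 4 to 8 and activated cells as a peak of over 1 kb.

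The 277.4 kb site (chr11:67127292-67128104) showed the same split, with 16 of 16 MyoD-induced and 0 of 4 uninduced libraries (adjusted p = 0.00787, Fisher's exact test), and all SC libraries. Unlike the 68.9 kb site, it was called in both MEF10 MyoD+FRG libraries and in neither MEF10 MN+FRG library. Its peaks kept the common width of their list in all MEF14 libraries (160 to 205 bp in Dox+FRG and 78 to 88 bp in Dox).

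The 108.3 kb site (chr11:66957415-66958391) was called in 15 of 16 MyoD-induced and 0 of 4 uninduced libraries (adjusted p = 0.0210, Fisher's exact test), the exception being Dox+FRG day 8 GFP replicate 2. The 83.8 kb site (chr11:66933149-66934598) was called in 14 and 0 (adjusted p = 0.0384, Fisher's exact test), the missing libraries being those of day 2, and it had no peak in any SC or MEF10 MN+FRG library. Its calls were not all at the same place. Peaks of Dox+FRG day 8 GFP began near 84.3 kb only, and that of Dox day 8 replicate 1 near 83.2 kb only. In the other direction the 73.9 kb site (chr11:66923761-66924008) was called in 1 of 16 MyoD-induced and 4 of 4 uninduced libraries (adjusted p = 0.0210, Fisher's exact test), the 1 being Dox+FRG day 2 replicate 2. Outside these groups it was called in both MEF10 MN+FRG libraries, in MEF10 MyoD+FRG replicate 2 and in quiescent SC replicate 1.

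**Figure D4:**
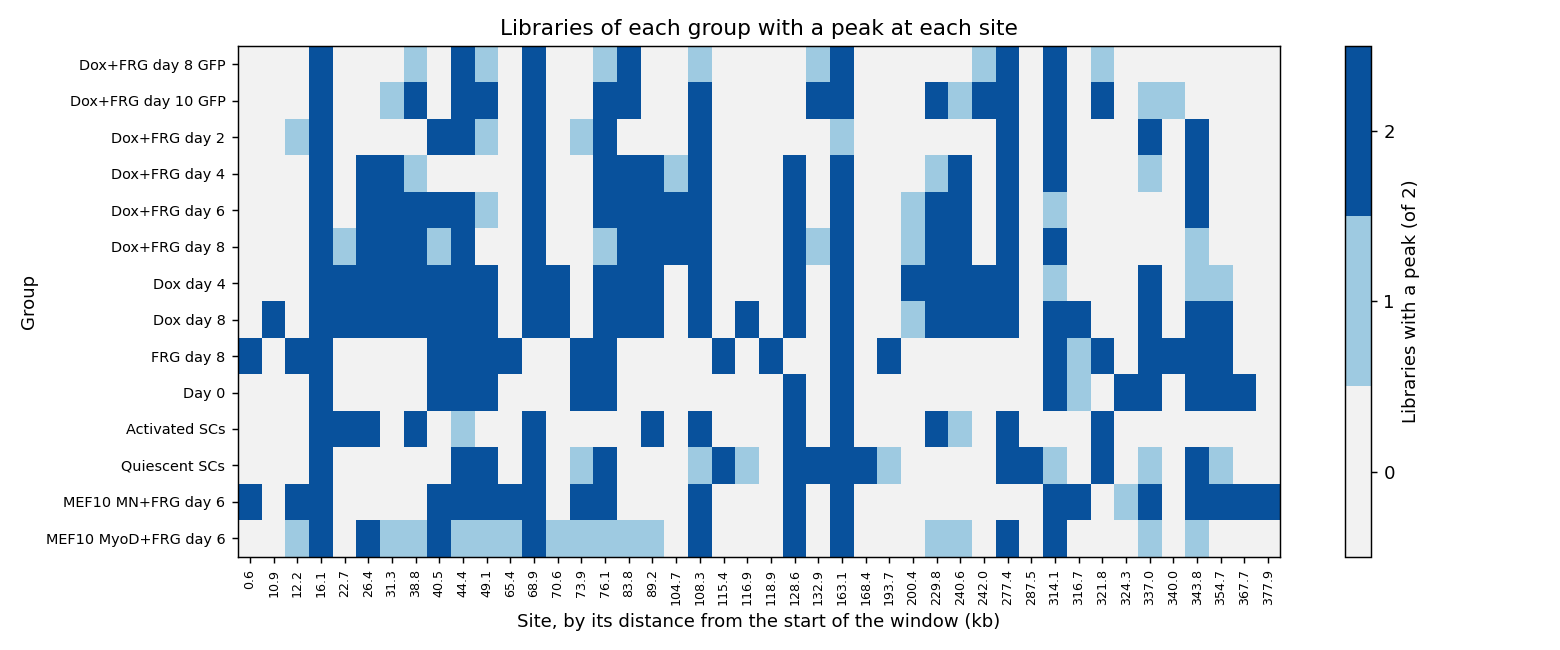
Columns are the 44 sites called in both libraries of at least 1 group, in order along the window with their distance in kb from its start, and rows are groups; dark blue marks a peak in both libraries, light blue in 1 and grey in none. The 16.1 kb column is dark in all groups, and the columns at 26.4, 31.3, 83.8 and 89.2 kb are grey in FRG day 8 and Day 0.

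In all, 18 sites were called in both libraries of a MyoD-induced group and in no uninduced library, a set picked on this contrast and given without a test. How many regions of the genome meet the same rule was not counted, so the number is not shown to be particular to the window. The set leaves out places that a site joins to places of uninduced libraries, as at 128.6 kb. Within that site, peaks starting at 127.247 to 127.449 kb were in both libraries of Dox+FRG days 4 and 6 and Dox days 4 and 8. Dox+FRG day 8 replicate 1 also had one, and no GFP, Day 0, FRG day 8, SC or MEF10 library did. In 4 equal stretches of 95 kb, 9 of 23, 4 of 11, 5 of 10 and 0 of 14 sites belonged to this set, from the Myh3 side to the Myh13 side, where the order of the GRCm38.p6 gene table is assumed to hold in mm9. Day 0 fibroblasts called 6, 2, 0 and 6 sites in both libraries over the same stretches, so the third was without a site shared by the Day 0 libraries and the fourth without a site of the set. Of the 18 sites, 3 were called in both libraries from day 2, namely those at 68.9, 108.3 and 277.4 kb, 5 first at day 4 (26.4, 31.3, 83.8, 89.2 and 240.6 kb) and 3 first at day 6 (38.8, 104.7 and 229.8 kb). The other 7 never had a peak in both unsorted Dox+FRG libraries of a day. Within the sites at 31.3 and 240.6 kb the peaks of the day 4 libraries did not overlap. They lay at 32.323 to 32.501 and 31.201 to 31.373 kb, and at 240.547 to 240.725 and 240.301 to 240.473 kb (replicates 1 and 2). At these sites both libraries of a day had overlapping peaks only from day 6.

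In satellite cells, whose libraries had no part in picking these 18 sites, activated SCs called 8 and 9 of them and quiescent SCs 5 and 3. Dox day 8 called 15 and 16, unsorted Dox+FRG day 8 14 and 11, GFP cells 7 and 3 at day 8 and 8 and 10 at day 10. MEF10 MN+FRG called 2 and 2, those at 68.9 and 108.3 kb, and MEF10 MyoD+FRG 6 and 9. These counts are not corrected for the length of the lists: activated SCs had 13 and 14 window peaks in all, quiescent SCs 24 and 14, and Dox day 8 28 and 33. The Dox, Dox+FRG and GFP libraries took part in picking the set, so their counts are raised by the choice. The share of like regions that each library called over the genome was not computed.

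Other sites were called in many libraries with and without MyoD. The 16.1 kb site (chr11:66865982-66866615) had a peak in all 28 libraries and the 163.1 kb site (chr11:67012916-67013713) in 27, missing only at Dox+FRG day 2 replicate 2. The 44.4 kb site (chr11:66893702-66895038) was called in 24 libraries, with neither Dox+FRG day 4 library among them. The sites at 76.1 kb (chr11:66925563-66926570) and 314.1 kb (chr11:67163874-67164173) were called in 23 each, the 128.6 kb site (chr11:66977248-66978823) in 20 and the 343.8 kb site (chr11:67193317-67193929) in 19. These were missing from whole groups, with 128.6 kb called in no Dox+FRG day 2, GFP or FRG day 8 library, 343.8 kb in no GFP or activated SC library, and 314.1 kb in no activated SC library. At 76.1 kb neither activated SC library had a peak, while quiescent SCs had peaks of 884 and 918 bp. At 44.4, 76.1, 128.6 and 163.1 kb not all libraries called the same place within the site.

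Against Day 0, Dox+FRG day 8 cells gained 10 and lost 5 of 23 window regions, 43.5% and 21.7%, where percent called over the genome was 20.0 for gained and 30.6 for lost. Gained means called by each library of the first-named group and by no library of the other, and lost the reverse. With 2 libraries against 2 an exact p cannot go below 0.333, so these are counts without a test. As sites, 11 were gained, among them those at 68.9, 108.3 and 277.4 kb. The other gained sites were the 8 first called at day 4 or 6. The 6 lost sites were at 49.1 kb (chr11:66898933-66899388), 73.9 kb, 324.3 kb (chr11:67174137-67174370), 337.0 kb (chr11:67186889-67187151), 354.7 kb (chr11:67204596-67204796) and 367.7 kb (chr11:67217612-67217804).

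With doxycycline alone, Dox day 8 cells gained 13 and lost 3 of 27 window regions against Day 0, 48.1% and 11.1%, beside percent called of 39.7 and 6.63 over the genome. Their lists were longer than those of Day 0 (108663 and 130916 peaks against 70756 and 67502). As sites, 15 were gained, including those at 68.9, 108.3 and 277.4 kb, and those at 73.9, 324.3 and 367.7 kb were lost. This comparison and the other 2 against Day 0 share the Day 0 libraries. With small molecules and no doxycycline, FRG day 8 cells gained 8 and lost 3 of 21 regions, 38.1% and 14.3%, beside 43.0 and 4.49 percent over the genome. Gained sites included 321.8 kb (chr11:67171564-67171967), 12.2 kb (chr11:66862109-66862314) and 65.4 kb (chr11:66915358-66915485). Lost sites were at 128.6, 324.3 and 367.7 kb.

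**Figure D5:**
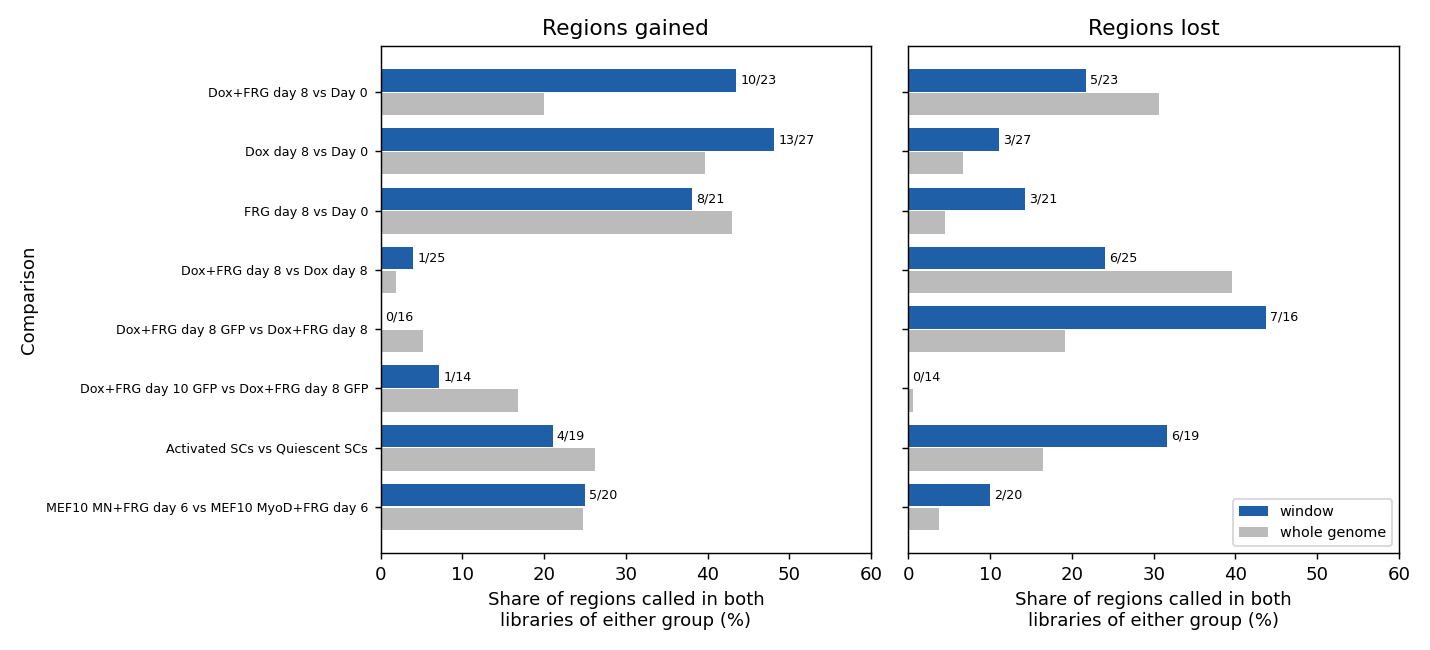
Bars give the share (%), among regions that either group called in both of its libraries, that were gained (left) or lost (right) in the first-named group, in the window (blue, with the number of regions) and over the whole genome (grey). In Dox+FRG day 8 GFP against Dox+FRG day 8 cells the window lost 7 of 16 regions and gained 0.

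Dox+FRG libraries had a higher mean window share than Dox libraries, but the difference did not pass the test. Dox+FRG had 3.25 ± 0.399 window peaks per 10000 and Dox 2.69 ± 0.162 over days 4 and 8 (SD, n = 4 each), a difference of 0.568 (exact permutation test, 70 splits; p = 0.0857, 0.114 after adjustment). Covered bp in place of peaks and extended peaks alone, those wider than the common width of their list, brought this past the threshold (adjusted p = 0.0381 each, exact permutation test), while plain peak numbers were lower in Dox+FRG, at 19.3 ± 1.89 and 28.5 ± 3.32. At day 8, Dox+FRG cells gained 1 and lost 6 of 25 regions against Dox cells, 4.00% and 24.0%, with 1.94 and 39.6 percent over the genome. The gained one was the 104.7 kb site (chr11:66954558-66954830), which only unsorted Dox+FRG libraries of days 4, 6 and 8 called, 5 of 6. Of the 8 lost sites, the ones called in most libraries were at 49.1 kb (18 of 28), 337.0 kb (16) and 354.7 kb (10). Without Dox+FRG day 4 replicate 1 the difference in share was 0.759 (adjusted p = 0.0381, exact permutation test). At 40.5 kb (chr11:66890363-66891840) the Dox day 8 peaks of 1378 and 1344 bp joined places that Dox day 4 and Day 0 libraries called apart from each other. This site, like others above, is thus not 1 place in all lists.

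Day 8 GFP libraries had fewer peaks in the window than unsorted libraries of the same day. Window peaks numbered 13 and 8 in day 8 GFP cells and 22 and 18 in unsorted day 8 cells, and the GFP lists were shorter (47002 and 43467 peaks against 67026 and 50608). GFP cells gained 0 and lost 7 of 16 regions, 43.8%, where percent called over the genome was 5.15 and 19.2. The lost sites were at 26.4 kb (chr11:66876290-66876568), 31.3 kb (chr11:66881134-66882509), 89.2 kb (chr11:66938986-66939326), 104.7 kb, 128.6 kb, 229.8 kb (chr11:67079687-67080225) and 240.6 kb (chr11:67090232-67090862). Over all days, GFP libraries had a window share of 2.49 ± 0.443 and unsorted Dox+FRG libraries 3.02 ± 0.531 (SD, n = 4 and 8), a difference of -0.528 that did not pass (exact permutation test, 495 splits; p = 0.125, 0.125 after adjustment). Leaving day 2 out of the unsorted cells gave -0.775 (adjusted p = 0.0381, exact permutation test), and leaving out day 8 GFP replicate 2 gave -0.310 (adjusted p = 0.333, exact permutation test). With covered bp it was -0.319 and with extended peaks -0.0496. The mean of both flanks was also lower in GFP libraries, at 1.61 ± 0.105 against 1.87 ± 0.300 per 10000 (SD, n = 4 and 8), which was not tested. The 44.4 kb site ran the other way in width, with peaks of 1229 and 1337 bp in day 8 GFP cells against 180 and 172 bp in unsorted day 8 cells.

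From day 8 to day 10, GFP cells gained 1 and lost 0 of 14 regions, 7.14% and 0%, beside 16.8 and 0.541 percent over the genome. The region gained was the 229.8 kb site. With 1 library standing for its group the gained number was 2 to 6, the 6 without day 8 GFP replicate 1. Peaks at 83.8 kb were 1302 and 1329 bp wide at day 10 and 190 and 182 bp at day 8. A pair of sites was singled out after their values were seen. The 132.9 kb site (chr11:66982764-66983188) was called in 1 and 2 GFP libraries of days 8 and 10, in both quiescent SC libraries, in 1 unsorted day 8 library and in no other. These peaks were not all at the same place. Quiescent SC peaks began at 133.008 and 132.977 kb (replicates 1 and 2). The day 10 GFP replicate 1 peak ended at 132.947 kb and overlapped neither, while those of day 8 GFP replicate 1 and day 10 GFP replicate 2 ended at 133.024 and 133.018 kb. The 321.8 kb site was called in 1 and 2 GFP libraries, in all SC libraries and in both FRG day 8 libraries, and in no unsorted Dox+FRG or Dox library. There the peaks of quiescent SC replicate 2 (321.563 to 321.735 kb) and FRG day 8 replicate 1 (321.817 to 321.878 kb) did not overlap.

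Over the sites of the window, day 10 GFP cells shared on average 0.620 of the sites called in either library (Jaccard index, 4 pairs) with day 8 GFP cells. The index was 0.510 with Dox day 4, 0.492 with unsorted Dox+FRG day 8 and 0.470 with Dox day 8. It was 0.404 with activated SCs, 0.400 with quiescent SCs, 0.263 with FRG day 8 and 0.260 with Day 0. Between the day 10 GFP libraries it was 0.789. These values describe 58 sites and lists of unequal length.

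Satellite cell lists held a larger share of their peaks in the window than lists of uninduced fibroblasts, a difference that did not pass after adjustment. The share was 3.19 ± 0.874 in SCs and 1.85 ± 0.287 in uninduced libraries (SD, n = 4 each), higher in 4 of 4 SC libraries than in every uninduced one, with a difference of 1.34 (exact permutation test, 70 splits; p = 0.0286, the smallest this design allows, and 0.0571 after adjustment). With plain peak numbers the difference was -1.75, and with covered bp and with extended peaks it passed (adjusted p = 0.0381 each, exact permutation test). Between the states, activated SCs had 13 and 14 window peaks (2.65 and 2.28 per 10000) and quiescent SCs 24 and 14 (4.15 and 3.69). The states did not overlap in share. The mean of both flanks stood in the same order, at 1.63 and 1.55 per 10000 in activated and 2.33 and 2.11 in quiescent SCs, which was not tested. Activated SCs gained 4 and lost 6 of 19 regions against quiescent SCs, 21.1% and 31.6%, beside 26.2 and 16.4 percent over the genome, with 14 lost when quiescent SC replicate 2 was left out.

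Sites open in activated and not in quiescent SCs were at 22.7 kb (chr11:66872627-66872835), 26.4 kb, 38.8 kb (chr11:66888603-66888903), 89.2 kb and 229.8 kb. All 5 were called in the 4 Dox libraries, and none in an uninduced library or at Dox+FRG day 2. Unsorted Dox+FRG day 8 cells called 5 and 4 of them, and GFP cells 1 and 0 at day 8 and 2 and 2 at day 10. These counts are not corrected for list length, which was 89871 to 130916 peaks in Dox and 43467 to 64947 in GFP libraries. The share of like regions that each library called over the genome was not computed, so the counts are not shown to be particular to the window. At 229.8 kb the peaks of the activated SC libraries did not overlap, lying at 230.034 to 230.216 and 229.705 to 229.878 kb. Sites open in quiescent and not in activated SCs were at 49.1, 76.1, 115.4 (chr11:66965270-66965464), 132.9, 168.4 (chr11:67018252-67018544), 287.5 (chr11:67137363-67137617) and 343.8 kb. Those at 168.4 and 287.5 kb were called in quiescent SCs and in no other group. In the same way the 10.9 kb site (chr11:66860805-66860897) belonged to Dox day 8, the 118.9 kb site (chr11:66968456-66969395) to FRG day 8, and the 377.9 kb site (chr11:67227778-67227949) to MEF10 MN+FRG. The 6 sites common to all SC libraries were at 16.1, 68.9, 128.6, 163.1, 277.4 and 321.8 kb.

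In MEF10 cells, MN+FRG cells gained 5 and lost 2 of 20 regions against MyoD+FRG cells, 25.0% and 10.0%, beside 24.8 and 3.76 percent over the genome. Window peaks numbered 21 and 22 in MN+FRG and 11 and 23 in MyoD+FRG libraries. The gained sites were at 0.6 kb (chr11:66850308-66850678), 316.7 kb (chr11:67166626-67166782), 354.7 kb, 367.7 kb and 377.9 kb, and the lost ones at 26.4 and 277.4 kb. Leaving out MyoD+FRG replicate 2 gave 11 gained and 4 lost, and leaving out replicate 1 gave 10 lost. The MyoD+FRG libraries differed from each other more than those of any other group, with a Jaccard index of 0.346 over the window sites against 0.870 for MN+FRG.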

How the data were processed

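ATAC-seq peak lists of 28 mouse libraries were used, 1 list per library and 2 libraries per group. BWA, HOMER and mm9 are what the authors named, per the submitters' processing notes. The deposited lists give only the chromosome, start and end of each peak, which is other data than counts or signal, with no score, height or read number. No versions, peak threshold or read filters were stated there, and how reads from near-identical myosin genes were placed was not tested. Per the labels' protocols 60000 cells entered a reaction. File starts were taken to be 0-based, and printed positions are 1-based.

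Peaks of the window were counted per library and divided by the list length. Overlapping peaks (at least 1 bp) were merged into regions over all lists. Group means were compared by two-sided exact permutation tests over libraries (Benjamini-Hochberg over 4 tests, threshold 0.05), the relation with day by 100000 permutations, and region calls by Fisher's exact test over all regions called in at least 4 libraries (scipy 1.17.1, Python 3.11.15). The counting and the Fisher step were tested on simulated data. Sites named are the 10 called in most libraries, up to 3 gained and 3 lost per comparison, and those of 1 group only. Others were chosen after their values were seen, and the window, lists and tests were chosen with earlier results of these data known. Alternatives were plain counts, covered bp, extended peaks, a window without its outer 20 kb, a replicate block, a 50% overlap, regions called in at least 1 library, other sets of libraries and each library left out. Merging without MEF10 MyoD+FRG day 6 replicate 2 was added after seeing the lists. Promoter sequences are from RefSeq (GRCm38.p6).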

Additional observations from a re-analysis of the deposited data

How the results depend on the processing

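Dividing by list length decides several window results. With plain peak numbers the MyoD-induced minus uninduced difference was 1.56 peaks (adjusted p = 0.800, exact permutation test), Dox+FRG minus Dox turned to -9.25 peaks and SCs minus uninduced to -1.75 peaks. With covered bp per 10000 bp of the list, Dox+FRG minus Dox was 1.04 and SCs minus uninduced 1.83, and with extended peaks 2.56 and 2.55, each past the threshold (adjusted p = 0.0381, exact permutation test). Without FRG day 8 the MyoD difference was 0.709 and no longer passed, and without day 2 the GFP difference was -0.775 and passed. Pearson's r with day kept its direction and call under plain numbers, covered bp, extended peaks, the narrower window, the block and each library left out (without Day 0, rho lost its call, permutation p = 0.0535). With each library left out in turn the MyoD difference was 0.865 to 1.05, the GFP difference -0.649 to -0.310, the SC difference 1.02 to 1.65 and r with day 0.87 to 0.97; Dox+FRG minus Dox was 0.467 to 0.759, and passed without Dox+FRG day 4 replicate 1. Window regions called more often with MyoD by Fisher's exact test were 0 to 3 and less often 0 to 2. With extended peaks no window region passed Fisher's exact test in either direction (0 and 0). Gained and lost regions were then 2 and 0 for Dox+FRG day 8, 5 and 0 for Dox day 8 and 3 and 0 for FRG day 8 against Day 0, 1 and 1 for GFP against unsorted day 8, 1 and 1 for activated against quiescent SCs, and 0 and 0 for MEF10 MN+FRG against MyoD+FRG, which has fewer peaks to count by construction. Without the outer 20 kb, MEF10 MN+FRG gained 2. Leaving out 1 library, which lets the other stand for its group, gave 10 to 14 gained and 5 to 7 lost (Dox+FRG day 8), 13 to 16 and 3 (Dox day 8), 8 to 10 and 3 (FRG day 8), 1 to 2 and 6 to 8 (Dox+FRG against Dox), 0 to 1 and 7 to 10 (GFP against unsorted), 2 to 6 and 0 (GFP day 10 against day 8), 4 to 6 and 6 to 14 (activated against quiescent), and 5 to 11 and 2 to 10 (MEF10). With the replicate number as a block, adjusted p was 0.00790 for the MyoD difference (0.956), 0.138 for Dox+FRG minus Dox and for GFP minus unsorted, and 0.111 for SCs (exact permutation tests), and r with day was 0.91 (permutation p = 0.00209), so no call changed. Deviations of same-numbered libraries correlated between -0.179 and 0.109 over 91 pairs of groups, and the numbers were not taken to pair the libraries.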
